A study of Mus musculus with 12 samples.

Results

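The genes described here are those of the small basic proteins that package DNA in late spermatids and sperm, the transition proteins Tnp1 and Tnp2 and the protamines Prm1 and Prm2, together with Prm3, which lies between Tnp2 and Prm2 and encodes an acidic cytoplasmic protein. These 5 genes, of 21887 protein-coding genes in all, were chosen by name, and peaks were collected over each gene body and 5 kb on both sides (the 5 kb window). INO80, the motor subunit of a remodelling complex that acts on nucleosomes containing the histone variant H2A.Z, and H2A.Z itself were mapped by ChIP-seq (chromatin immunoprecipitation followed by sequencing) in spermatogenic cells from testes of mice of mixed background at postnatal day 18. The INO80 antibody was used on wild-type cells. The H2A.Z antibody was used on Ino80WT cells (called wild type below) and on Ino80cKO cells (called knockout), in which Stra8-Cre, a recombinase driven from a promoter of germ cells near meiotic entry, deleted Ino80 in the testis. Each of these 3 groups has 2 libraries and 1 peak list, and every group has input libraries that were not analysed here. A peak list gives positions only. There is therefore no replicate error, no depth and no test behind any value below, and a peak that is absent from a list may lie just under its threshold.

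Transition proteins replace most histones in elongating spermatids, and protamines then replace the transition proteins, which compacts the sperm nucleus. Their genes are transcribed in round spermatids and their messenger RNAs are stored before translation. At the age sampled here the most advanced cells of the first wave are mainly meiotic, so these genes were examined largely before the stage at which they are strongly expressed. The lists hold no expression values, so neither the expression of these genes nor the labelled cell type could be checked.

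Tnp2, Prm3, Prm2 and Prm1 lie in this order within 8889 bp of chromosome 16 (mm10, 10787935 to 10796823), all on the minus strand. Tnp2 spans 721 bp, Prm3 407 bp, Prm2 729 bp and Prm1 492 bp. The gaps between them are 1852 bp (Tnp2 to Prm3), 462 bp (Prm3 to Prm2) and 4226 bp (Prm2 to Prm1), so their windows overlap and 1 peak can count for several of them. Tnp1 stands alone on the minus strand of chromosome 1 (73015074 to 73015899, 826 bp).

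The 250 bases before each start site are shown because CpG dinucleotides, in capitals, were few in all 5 genes, whereas the promoter of Socs1, the neighbour of Tnp2, held more. Sequences are from RefSeq (GRCm38.p6, the assembly of mm10) and read 5′ to 3′ on the strand of the gene, with the last base next to the start site.
Tnp1 (chr1:73015900-73016149, minus strand): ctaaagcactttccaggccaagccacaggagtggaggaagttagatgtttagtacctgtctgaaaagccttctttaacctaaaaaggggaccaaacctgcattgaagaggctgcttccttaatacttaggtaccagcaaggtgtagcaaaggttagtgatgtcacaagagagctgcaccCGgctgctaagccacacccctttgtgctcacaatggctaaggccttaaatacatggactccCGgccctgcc
Tnp2 (chr16:10788656-10788905, minus strand): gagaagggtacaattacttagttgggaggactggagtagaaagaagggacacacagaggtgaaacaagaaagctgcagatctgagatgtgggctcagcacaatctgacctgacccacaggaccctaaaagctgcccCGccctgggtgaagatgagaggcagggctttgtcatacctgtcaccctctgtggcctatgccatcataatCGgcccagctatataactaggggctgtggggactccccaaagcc
Prm1 (chr16:10796824-10797073, minus strand): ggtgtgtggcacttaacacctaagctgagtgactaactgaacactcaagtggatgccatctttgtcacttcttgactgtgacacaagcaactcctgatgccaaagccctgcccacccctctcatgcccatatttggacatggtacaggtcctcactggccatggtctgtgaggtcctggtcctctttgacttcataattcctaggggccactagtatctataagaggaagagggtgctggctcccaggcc
Prm2 (chr16:10792106-10792355, minus strand): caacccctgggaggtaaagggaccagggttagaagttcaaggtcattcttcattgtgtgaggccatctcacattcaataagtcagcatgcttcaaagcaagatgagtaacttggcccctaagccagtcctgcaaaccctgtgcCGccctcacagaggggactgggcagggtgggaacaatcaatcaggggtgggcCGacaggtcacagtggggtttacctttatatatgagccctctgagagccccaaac
Prm3 (chr16:10790915-10791164, minus strand): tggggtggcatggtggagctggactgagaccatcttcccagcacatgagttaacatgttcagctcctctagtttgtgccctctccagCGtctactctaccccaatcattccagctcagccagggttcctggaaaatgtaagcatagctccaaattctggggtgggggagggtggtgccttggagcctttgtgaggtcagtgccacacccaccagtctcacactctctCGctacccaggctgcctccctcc
Socs1 (chr16:10785537-10785786, minus strand): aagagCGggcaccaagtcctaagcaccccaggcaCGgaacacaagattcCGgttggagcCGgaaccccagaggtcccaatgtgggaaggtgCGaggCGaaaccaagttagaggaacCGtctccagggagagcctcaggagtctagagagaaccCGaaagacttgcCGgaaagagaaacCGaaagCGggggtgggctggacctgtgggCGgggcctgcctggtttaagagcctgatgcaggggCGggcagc

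There were 0 CpGs before the start of Prm1 and 2 before the starts of Prm2, Prm3, Tnp1 and Tnp2, against a median of 10 over 21263 promoters of protein-coding genes. Socs1 had 13. GC content was 49.2% before Tnp1, 51.6% before Prm1, 52.8% before Prm2 and 53.2% before Tnp2, below the median of 55.6% over all promoters, and 56.4% before Prm3, just above it. TGACG, the conserved core of the cAMP response element through which CREM activates spermatid genes, had no exact match on either strand in these 250 bases of any of the 5 genes, nor had TGACGT, which contains it (17.8% and 6.47% of all 32851 promoters in the table, of any gene type). TATAAA, a common form of the TATA box, was matched in Prm2 alone of the 5 (12.4% of all promoters). This match was on the opposite strand, 31 to 26 bases before the start, where the strand of the gene reads tttatatat. CCAAT was matched in Prm3 alone of the 5, 150 to 146 bases before the start (33.8% of all promoters), and also in the promoter of Socs1. A match or its absence concerns only these letters in this stretch. Near forms that the exact search passes over are visible above, such as tgatgtca before Tnp1, tgacttca before Prm1 and tatataa before Tnp2. An absent match therefore does not show that a gene lacks such an element.

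No peak of any list touched the body or the promoter of Prm1, Prm2, Prm3 or Tnp2. Here a promoter is the stretch from 250 bases before the start site to 50 bases from it on. Over all protein-coding genes with a promoter in the reference table, 48.1% had INO80, 55.9% wild-type H2A.Z and 49.5% knockout H2A.Z there, and 38.5% had no peak of any list. The whole stretch from the 3′ end of Tnp2 to the start of Prm1 was free of peaks in all 3 lists.

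The peaks nearest to the cluster lay beyond the 3′ end of Tnp2, over Socs1, which encodes an inhibitor of cytokine signalling. The INO80 peak spanned 2484 bp (chromosome 16, 10783973 to 10786456). The wild-type H2A.Z peak there spanned 1975 bp (10784324 to 10786298) and the knockout H2A.Z peak 2158 bp (10784264 to 10786421). All 3 covered the promoter of Socs1, and they were wide for their lists, at width percentiles of 94.4 (INO80), 99.2 (wild type) and 99.6 (knockout).

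**Figure D1:**
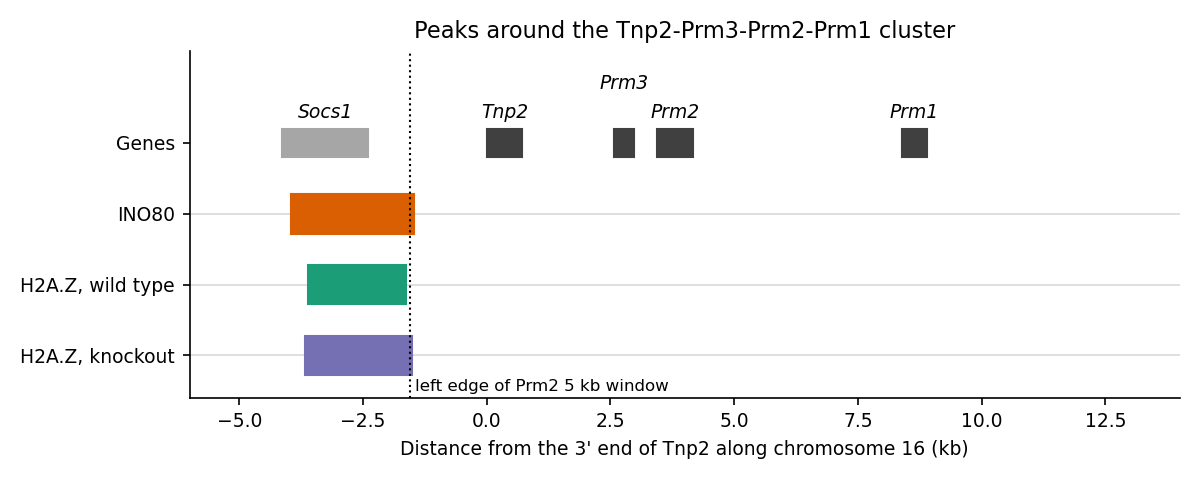
Genes and peaks along chromosome 16, with distance from the 3′ end of Tnp2 in kb on the x axis, genes in the top row and the peaks of each list in a row of their own; the dotted line marks the left edge of the 5 kb window of Prm2. The peaks lie over Socs1 and stop 1479 to 1637 bp short of Tnp2, and none lies between Tnp2 and Prm1.

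With the 5 kb window, these Socs1 peaks gave the cluster all of its calls. Tnp2 was 1479 bp from the INO80 peak, 1637 bp from the wild-type and 1514 bp from the knockout H2A.Z peak, and its window held all 3 peaks whole. Prm3 was 4052, 4210 and 4087 bp from the same peaks, and its window held 949, 791 and 914 bp of them. Prm1 was 9876 bp from INO80, 10034 bp from wild-type and 9911 bp from knockout H2A.Z, and its window held no peak.

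Among the 5 genes the H2A.Z call differed between genotypes at Prm2 alone (4.57% of all protein-coding genes had such a difference), and the difference rested on the edge of the window. The knockout peak reached 45 bp and the INO80 peak 80 bp into the window of Prm2, while the wild-type peak ended 5079 bp from the gene, just outside it. The knockout peak extended 123 bp past the wild-type peak on this side, and the 2 peaks overlapped along the whole wild-type peak. H2A.Z in the knockout alone was called for 125 of 21887 genes (0.571%). Of these 125, only 3 (2.40%), Prm2 among them, had a knockout peak in the window that overlapped a wild-type peak outside it. With the peak's centre required in the window, or with windows of 1 kb, Prm2 had no H2A.Z call in either genotype.

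Tnp1 differed from the cluster genes in that H2A.Z lay on the gene itself. The wild-type peak (chromosome 1, 73015612 to 73015983, 372 bp) covered the start site, from 84 bp before it to 287 bp after it. The knockout peak (73015684 to 73015917, 234 bp) covered it from 18 bp before to 215 bp after. The knockout peak lay wholly within the wild-type peak and covered 62.9% of it. Both were below the median width of their lists (460 bp in the wild type and 422 bp in the knockout), at width percentiles of 41.3 and 24.2.

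No INO80 peak lay in the window of Tnp1, and 12.8% of genes with H2A.Z of both genotypes in the window shared this. The nearest was 139811 bp away, over Igfbp5, which encodes a binding protein of insulin-like growth factors. This distance exceeded that of 85.6% of all protein-coding genes and of 48.4% of those under 2 kb. A long non-coding RNA gene, 1700027A15Rik, starts 137 bp from the Tnp1 start site in the opposite direction. The wild-type H2A.Z peak ended 53 bp and the knockout peak 119 bp short of its start, so both peaks covered the start of Tnp1 and reached into the bases before the start of the non-coding RNA without covering it.

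**Figure D2:**
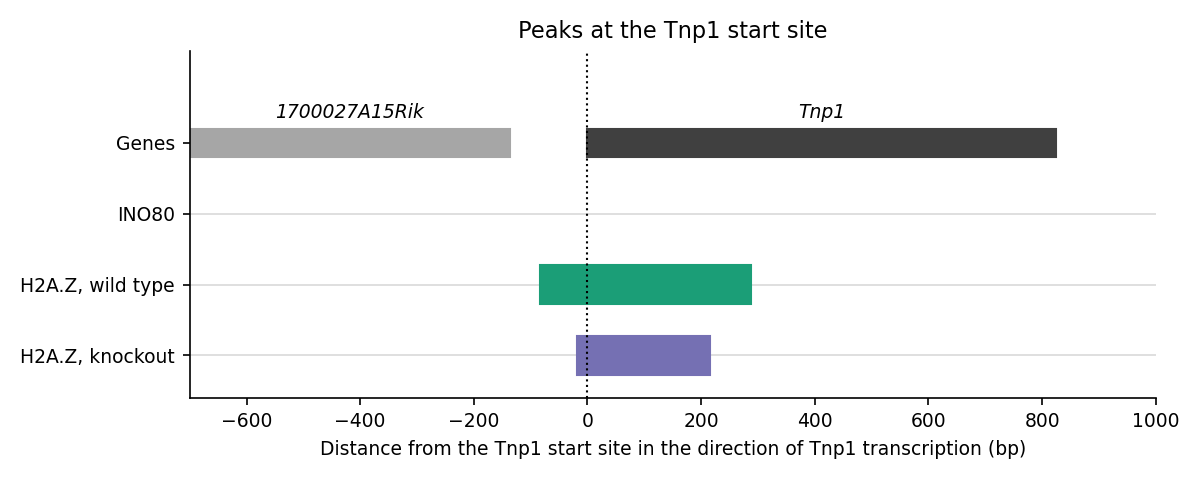
Genes and peaks at Tnp1, with distance from its start site in bp on the x axis, positive in the direction of transcription (dotted line at 0). The wild-type H2A.Z peak of 372 bp and the knockout peak of 234 bp both cover the start site, and the INO80 row is empty.

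Counted over the 5 genes with the 5 kb window, INO80 was called at 3 (Tnp2, Prm3 and Prm2), against 63.3% of all protein-coding genes. Wild-type H2A.Z was called at 3 (Tnp1, Tnp2 and Prm3), against 73.6%, and knockout H2A.Z at 4 (all but Prm1), against 70.1%. Both genotypes had H2A.Z at 3 (Tnp1, Tnp2 and Prm3), against 69.6%. Among 2583 protein-coding genes under 2 kb the shares were 18.2% (INO80), 22.3% (wild-type H2A.Z) and 19.9% (knockout H2A.Z). All 5 genes are of this size, and why short genes have lower shares was not tested. The 4 cluster genes share their peaks and do not count as separate observations, so these counts stand for 2 loci. With the gene body alone, INO80 was called at 0 of the 5 genes and H2A.Z, in both genotypes, at Tnp1 alone. The gene bodies of 58.3% of all protein-coding genes held INO80, 69.2% wild-type H2A.Z and 64.9% knockout H2A.Z, and among those under 2 kb these shares were 14.4%, 17.2% and 14.8%.

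A peak in the window without 1 over the gene's own promoter, as at Tnp2 and Prm3, was common. Of genes with INO80 in the window, 23.8% had none over their own promoter, and 23.6% of genes with wild-type and 29.0% of genes with knockout H2A.Z were of this kind. Windows without any peak, as for Prm1, were found for 25.0% of all genes and 76.1% of those under 2 kb.

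**Figure D3:**
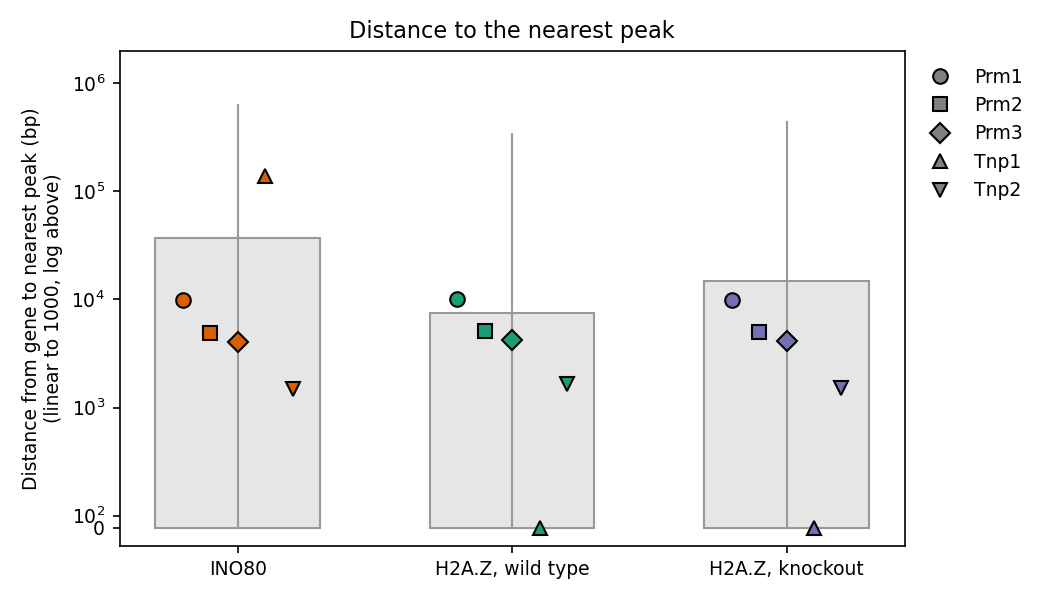
Distance in bp from each of the 5 genes to the nearest peak of each list, on an axis that is linear to 1000 bp and logarithmic above; grey boxes span the middle 50% of all protein-coding genes and grey lines their 5th to 95th percentiles. Tnp1 lies at 0 for both H2A.Z lists and at 139811 bp for INO80, and the cluster genes line up by their distance from Socs1, from 1479 bp (Tnp2) to 10034 bp (Prm1).

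Promoters as poor in CpGs as these seldom held a peak. Of 4801 promoters with at most 2 CpGs, 97.0% had no peak of any list, as had Prm1, Prm2, Prm3 and Tnp2. Wild-type H2A.Z lay over 1.87% of them and knockout H2A.Z and INO80 each over 1.46%. Promoters with 21 or more CpGs held INO80 in 92.9%, wild-type H2A.Z in 92.4% and knockout H2A.Z in 85.0% of cases.

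Tnp1 thus belonged to a small set of CpG-poor promoters with H2A.Z. Both genotypes had H2A.Z over 56 of the 4801, and 33 of these 56 (58.9%), Tnp1 included, had no INO80 over the promoter. The corresponding share without INO80 was 63.4% over promoters with 3 to 5 CpGs and 45.6% over those with 6 to 10. It was 22.8% with 11 to 20 CpGs and 4.69% with 21 or more. Over the genes with a promoter in the table, 9.58% had H2A.Z of both genotypes and no INO80 there, which is 19.8% of those with H2A.Z of both genotypes. H2A.Z peaks over promoters without INO80 were narrower than those over promoters with it, with medians of 647 against 904 bp in the wild type and 546 against 795 bp in the knockout. The Tnp1 peaks were narrower than any of these medians: 23.1% of wild-type and 15.0% of knockout H2A.Z peaks over promoters without INO80 were narrower than those of Tnp1.

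**Figure D4:**
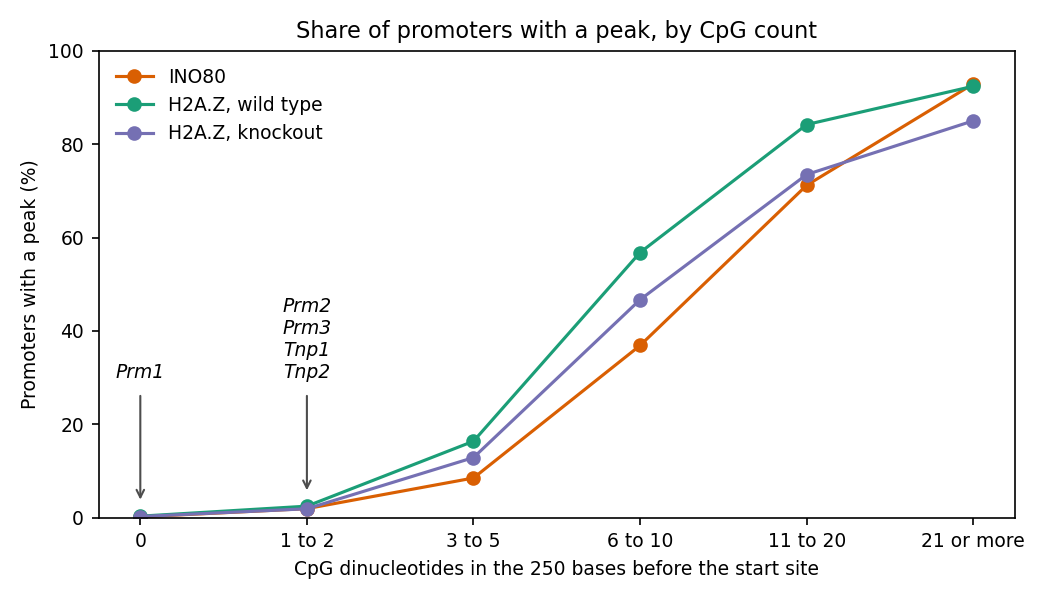
Percent of promoters of protein-coding genes with a peak of each list (y axis) by the number of CpGs in the 250 bases before the start site (x axis); arrows mark the bins of the 5 genes. The shares rise from under 1% with 0 CpGs to between 85.0% and 92.9% with 21 or more, and the 5 genes fall in the lowest 2 bins.

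Widths of partnered H2A.Z peaks can be set side by side between genotypes, although depth was unknown for both lists and the cause of a difference in width was not tested. The knockout peak at Tnp1 had 0.63 times the width of its wild-type partner. The median ratio over 22367 pairs of peaks that overlap only each other was 0.88 (quartiles 0.66 and 1.01), and over the 4089 pairs with a wild-type peak of 300 to 450 bp it was 0.83 (0.60 and 1.02). The ratio at Tnp1 thus lay just below the lower quartile of all pairs, with 22.7% of them lower, and above that of pairs of like wild-type width. The peak at Socs1 went the other way, with a ratio of 1.09. Among 873 pairs with a wild-type peak of 1500 bp or more, 21.2% were wider in the knockout, and their median was 0.92.

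The 100 kb on both sides of the cluster held 2 INO80, 3 wild-type H2A.Z and 2 knockout H2A.Z peaks, against medians of 3, 5 and 5 around all protein-coding genes. Counts as low or lower were found around 42.5%, 32.8% and 29.6% of all genes. Apart from Socs1, peaks of all 3 lists lay at Rmi2, a subunit of a complex that dissolves recombination intermediates, 38.2 kb from Prm1 (INO80 610 bp, wild-type H2A.Z 573 bp, knockout H2A.Z 470 bp). The remaining peak, 147 bp wide and 691 bp from Rmi2, was in the wild-type list alone. Within 100 kb of Tnp1 there were 0 INO80 peaks, as for 17.0% of all genes, 3 wild-type H2A.Z peaks and 1 knockout peak. H2A.Z counts as low or lower were found around 32.8% (wild type) and 20.6% (knockout) of all genes. The 2 wild-type peaks without a knockout partner were a peak of 419 bp in the non-coding gene Gm31047, 69.3 kb away (width percentile 46.2), and a narrower peak of 173 bp at 36.2 kb (9.86), whose nearest gene was 1700027A15Rik. The H2A.Z peak at the start of Tnp1 was thus the only H2A.Z peak within 100 kb of it that both genotypes shared.

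Lists of other genes that act with protamines and transition proteins, or in the same cells, were set beside the 5 genes. Of 22 matched genes for spermatid chromatin, such as histone variants, chromatin readers and histone-modifying enzymes, 19 held INO80 in the 5 kb window (86.4%, against 63.3% of all protein-coding genes), 18 wild-type H2A.Z (81.8%, against 73.6%) and 16 knockout H2A.Z (72.7%, against 70.1%). The knockout H2A.Z share was close to that of all genes. Of the 20 with a promoter in the reference table, 14 had INO80, 13 wild-type and 9 knockout H2A.Z over it. Over all protein-coding genes with a promoter there, the shares were 48.1%, 55.9% and 49.5%. The widest INO80 peaks in this list lay at Hspa2 (2488 bp), a chaperone of meiotic and spermatid cells, at the remodeller gene Chd5 (1921 bp) and at the kinase gene Tssk6 (1886 bp). H2A.Z was called in the wild type alone at Chd5 (891 bp) and at H1f6 (246 bp), the testis linker histone H1t, and 4.00% of all genes had such a call. The list was uneven: H2al2a, H2ab1 and H2bl1, which encode testis histone variants, held no peak of any list. H2al2a and H2ab1 have close copies in the genome, where reads may not be assigned to 1 place, which was not tested. H2bc1 and H2ac1 are neighbours and share their peaks.

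Of 19 regulators of protamine and transition protein expression, 17 held INO80 (89.5%, against 63.3% of all genes) and 16 held H2A.Z in each genotype (84.2%, against 73.6% in the wild type and 70.1% in the knockout). The H2A.Z call differed between genotypes at 0 of the 19, and at 4.57% of all genes, so few such calls could be seen in a list of this size. The widest INO80 peaks in the window were at Sox5 (2382 bp), Tdrd6 (1691 bp), a component of the chromatoid body, and Crem (1483 bp), the cAMP-responsive activator of spermatid genes. No INO80 peak lay over the promoter of Sox5, and the promoters of Tdrd6 and Crem were not in the reference table. Piwil1, which encodes the PIWI protein of late meiotic cells and spermatids, had H2A.Z over its promoter in both genotypes and no INO80, with peaks of 183 bp (wild type) and 270 bp (knockout), as Tnp1 had. Fhl5, a coactivator of CREM, held no peak.

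Of 30 acrosome, sheath and channel genes, which like the protamines serve haploid cells, 13 held INO80 (43.3%, against 63.3% of all genes) and 18 held H2A.Z in each genotype (60.0%, against 73.6% in the wild type and 70.1% in the knockout). No peak of any list was found at 11 of the 30, and at 25.0% of all genes. In the window INO80 was widest at Catsper3 (2056 bp), a subunit of the sperm calcium channel, at the outer dense fibre gene Odf2 (1971 bp) and at Izumo1 (1539 bp), which is needed for fusion with the egg. No INO80 peak lay over the promoter of Catsper3 or Izumo1. Whether their peaks belong to a neighbouring gene was not tested. H2A.Z was called in the knockout alone at Catsper3 (224 bp), as at 0.571% of all genes, and in the wild type alone at Cabyr (218 bp), a calcium-binding protein of the fibrous sheath, as at 4.00% of all genes. H2A.Z of both genotypes without INO80 in the window was found at 5 of the 30, as at Tnp1, and at 8.93% of all genes. Over promoters in the reference table, 7 of 26 of these genes had INO80, 8 wild-type and 8 knockout H2A.Z. Among the regulators, 9 of 14 had INO80, 9 wild-type and 8 knockout H2A.Z there. The shares over all genes were 48.1%, 55.9% and 49.5%. The lists were not matched to all genes for gene length. No difference between these lists and the 5 genes was tested.

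**Figure D5:**
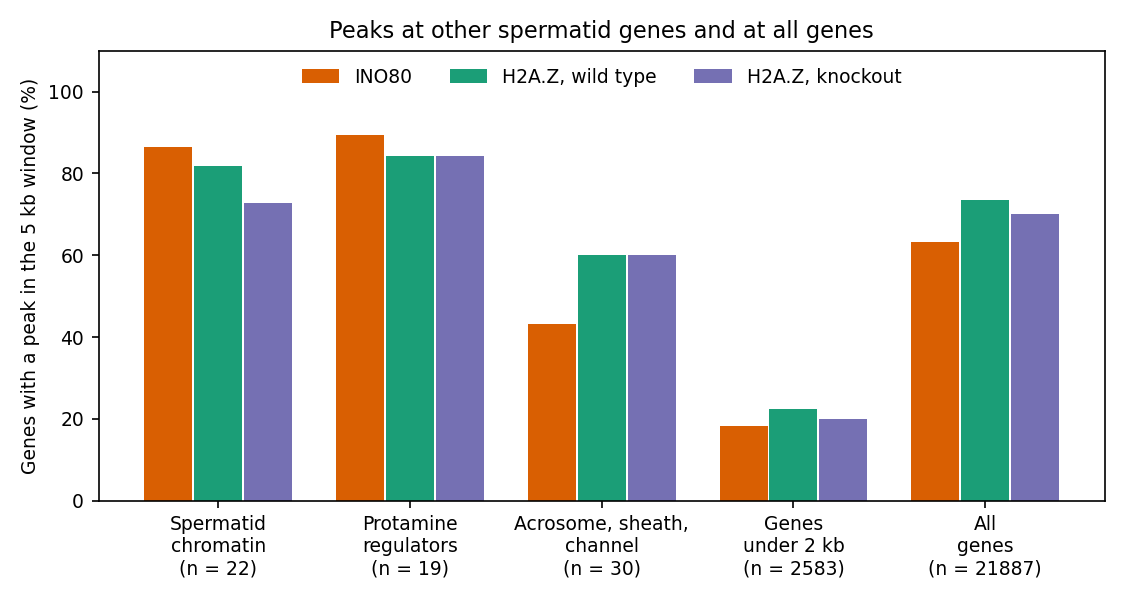
Percent of genes with a peak of each list in the 5 kb window (y axis, from 0) for 3 lists of other spermatid genes, for protein-coding genes under 2 kb and for all protein-coding genes; n is the number of genes. INO80 reaches 86.4% and 89.5% in the spermatid chromatin and regulator lists, 43.3% in the acrosome, sheath and channel list and 18.2% among genes under 2 kb.

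Protein-coding genes outside both loci, other than predicted genes and those with a Rik name, were compared with each member by distance to the nearest peak. The measure was the mean absolute difference of log10(distance + 1) over the 3 lists. The genes below are alike in these distances because they were chosen for it. For Tnp1 the most similar genes were Prokr1, Orc5 and Abcg2, each with H2A.Z of both genotypes on the gene and the nearest INO80 peak at 139341, 140836 and 138793 bp. For Tnp2 they were Tcap, Hspb9 and Adhfe1 (differences of 0.013 to 0.019), for Prm3 Hemgn, Siglec1 and Mmp19 (0.005 to 0.009), for Prm2 Ly6i, Wfdc5 and Dcpp3 (0.007 to 0.010) and for Prm1 Acy3, Kcnj1 and Ip6k3 (0.004 to 0.007).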

How the data were processed

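Peak lists from 12 ChIP-seq and input libraries in 6 groups of 2 were grouped by sample titles; 3 lists, 1 per ChIP group, were analysed. The authors deposited chromosome, start and end per peak, with no score; start and end are positions in bp, and no other unit is used. The submitters' processing notes name Bowtie2, SAMtools, deepTools, MACS2 and mm10 but no versions. Of their roles, the threshold, the control and the pooling the sources used here say nothing. Per the labels' protocols chromatin was cut with micrococcal nuclease, so peak outlines also reflect nucleosome positions. Whether the 2 libraries of a group stem from separate animals is not stated in the labels.

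Gene positions came from the RefSeq table of GRCm38.p6, and start sites and sequences from its promoter table, which held all 5 genes and 17492 of 21887 protein-coding genes. That table gives no exons, so positions within genes are given relative to the start site. A peak counted with at least 1 bp of overlap. Widths are ranked within a list. Protein sequences were not analysed here. The genes and lists were chosen with earlier results of these data known. Of the spermatid chromatin list H1f9 was not matched. The genes named are the 5 genes, genes at peaks within 100 kb, from each list at most 3 by width of INO80 peak and at most 3 whose H2A.Z call differs, and the 3 most similar genes; H2al2a, H2ab1, H2bl1, H2bc1, H2ac1, Fhl5, Piwil1 and Igfbp5, at the INO80 peak nearest to Tnp1, were named after their values were seen. Alternative windows, list lengths and overlap rules were tried. Scripts ran under Python 3.11.15 with pandas 2.3.3, numpy 2.4.6 and matplotlib 3.10.9; gene counts equalled those of bedtools 2.31.1 for 3 of 3 lists, and overlap functions were tested on simulated data.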

Additional observations from a re-analysis of the deposited data

How the results depend on the processing

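INO80 was called at 3 of the 5 genes with the 5 kb window, at 0 with the gene body alone or with 1 kb, at 4 with 10 or 50 kb and at 1 with the peak's centre required in the window. Wild-type H2A.Z went from 3 to 1 with the gene body alone or 1 kb and to 5 with 50 kb, and knockout H2A.Z from 4 to 1 with the gene body alone or 1 kb and to 2 by peak centre. The count of genes whose H2A.Z call differs between genotypes went from 1 (Prm2) to 0 with the gene body alone, 1 kb, 50 kb or the peak's centre, and with 10 kb it was 1 but the gene was Prm1. With the widest 50% of each list Tnp1 lost H2A.Z in both genotypes, leaving 2 genes with wild-type and 3 with knockout H2A.Z, and its nearest remaining peaks lay 140822 and 189787 bp away. The shares of all protein-coding genes with INO80, wild-type H2A.Z and knockout H2A.Z, 63.3%, 73.6% and 70.1% with the 5 kb window, were 58.3%, 69.2% and 64.9% with the gene body alone, 60.6%, 70.8% and 67.3% with 1 kb, 66.3%, 76.2% and 72.9% with 10 kb, 77.3%, 85.0% and 82.7% with 50 kb and 40.4%, 59.7% and 52.4% with the widest 50% of each list. With H2A.Z lists of equal length the wild-type share was 69.9%, and the counts over the 5 genes stayed as they were. Partner calls within 100 kb were the same with an overlap of 50% of the narrower peak. No paired analysis was possible because each group has 1 list and no values per library, and for the same reason no library could be left out. The depth behind the lists is unknown and limits what an absent peak shows.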

Other observations

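Genes that mark other cells of the testis were listed beside germ cell genes as a description of the lists, which hold no expression values. Of 6 Sertoli cell genes 5 held INO80 and H2A.Z of both genotypes in the 5 kb window, where 63.3% of all protein-coding genes held INO80 and 69.6% H2A.Z of both genotypes, among them Sox9 with an INO80 peak of 4432 bp and Gata4 with 4002 bp, both transcription factors of supporting cells. Of 5 Leydig cell genes 1 held INO80 and 2 H2A.Z of both genotypes. The INO80 peak was at Insl3 and, at 5468 bp, was wider than those at Sox9 and Gata4. Of 5 germ cell genes 4 held INO80, 5 wild-type H2A.Z (against 73.6% of all genes) and 4 knockout H2A.Z (against 70.1%). The gene with a wild-type call alone, as at 4.00% of all genes, was Sycp3 (351 bp), a component of the synaptonemal complex. With so few genes in a list, and peaks at most genes, these counts do not tell cell types apart, and whether somatic cells contributed chromatin was not tested.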
